A study of Danio rerio with 12 samples.

Results

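The 10 genes described here encode the enzymes that make the monoamine transmitters and the carriers that move them across membranes. They were found in the deposited data by gene symbol and are th, th2, ddc, dbh, slc6a3, slc6a4a, slc18a2, tph1a, tph1b and tph2. Each of the 10 symbols was found in 1 row of the deposited table, which lists 32057 genes.

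Dopamine and noradrenaline are made from tyrosine, and serotonin from tryptophan. Tyrosine hydroxylase and tryptophan hydroxylase set the pace of these pathways, both need tetrahydrobiopterin as a cofactor, and aromatic amino acid decarboxylase then completes dopamine and serotonin. A vesicular carrier loads the transmitter for release and a plasma membrane carrier takes it back up, so that these genes mark the small groups of neurons, and some endocrine cells, that use monoamines.

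The exposed groups were embryos kept in methylmercury (MeHg), an organic form of mercury that reaches the nervous system, at 6, 30 or 50 µg/L, and the controls were kept in 0 µg/L. Exposure lasted between 4 and 72 h after fertilisation, all embryos were labelled wild type, and poly(A) RNA of whole zebrafish embryos was sequenced in 3 libraries per group, 12 in all. The labels name no strain and do not say how many embryos went into a library or whether replicates were separate clutches. The p-values below therefore cover only how these libraries vary, which may be technical. The series looks for genes whose expression marks MeHg toxicity, and each dose was therefore set against the control, the doses against each other and expression against dose.

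Library totals ran from 15665053 to 22207603 counts. Control replicate 3 stood apart from the other controls. Across the tested genes it correlated at 0.907 and 0.928 (Spearman) with control replicates 1 and 2, while those correlated at 0.984 with each other. With the libraries at 6 µg/L it correlated at 0.949 to 0.957, while control replicate 1 did so at 0.911 to 0.934 and control replicate 2 at 0.931 to 0.950. Which of the controls is unusual cannot be settled from these data. Many values that rest on control replicate 3 are therefore also given without it or against it alone. Where it is the only control, that arm holds 1 library, the spread is estimated from the exposed groups alone and the library is assumed to vary as they do. The p-values of that fit describe the distance from this library, not from the control condition. In RNA of whole embryos, fewer cells of a type and less RNA per cell cannot be told apart.

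Levels are FPKM, fragments relative to exon length and sequencing depth, scaled between libraries by the TMM factors of the test. Changes are log2 fold changes ± SE from edgeR's quasi-likelihood test on the counts, and a gene is said to rise or fall only where its p-value, adjusted over all 19821 tested genes by the Benjamini-Hochberg method, was under 0.05. Of the 10 genes, 9 reached the mean of 0.5 FPKM required for testing and 1, th2, did not.

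These were rare transcripts in the whole embryo. The serotonin transporter gene slc6a4a was the highest of the 10 in every group, at 8.56 ± 2.23 FPKM in controls (SD, n = 3), followed by th at 2.77 ± 0.770 FPKM and tph2 at 2.13 ± 0.322 FPKM. The levels of slc6a4a did not overlap those of th in any group, whereas th and tph2 overlapped in the controls and did not overlap at 6, 30 or 50 µg/L. Below them, slc18a2, tph1b, tph1a, dbh, ddc and slc6a3 averaged 1.37 to 0.707 FPKM in controls, and each overlapped its neighbour in that order. The lowest was th2, at 0.251 ± 0.128 FPKM in controls, with 3 to 17 counts per library over all 12 libraries.

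At 50 µg/L the tryptophan hydroxylase genes tph1a and tph1b fell and no tested member rose. These 2 of 9 tested members are 22.2%, set against 21.9% of all tested genes that fell and 17.6% that rose in the same comparison, so the share was near that of the whole transcriptome. The median change of the 9 members was -0.35, against -0.04 over all tested genes. At 6 µg/L 0 of 9 members passed the test by edgeR, by DESeq2 or by limma, and 0 had an unadjusted p under 0.05, whereas 5.48% of all tested genes rose and 8.88% fell. At 30 µg/L the count was again 0 by all these tools and by the unadjusted p, against 13.4% of all tested genes that rose and 17.3% that fell. Closest there was tph1b, whose unadjusted p by edgeR lay just above 0.05.

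**Figure D1:**
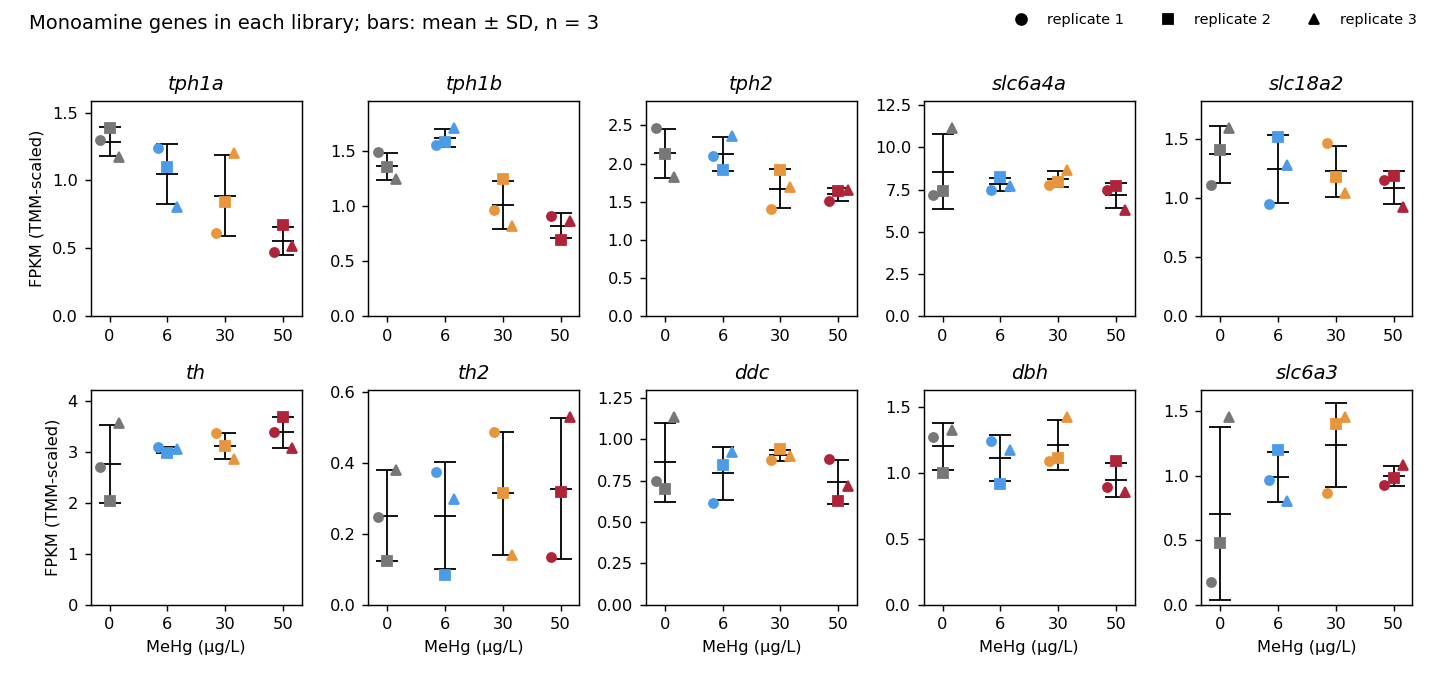
Level of each of the 10 genes in each of the 12 libraries, as TMM-scaled FPKM on a linear axis from 0, against the MeHg concentration in µg/L. Symbols mark replicates and bars give the mean ± SD of 3 libraries; the libraries at 50 µg/L lay below all controls for tph1a, tph1b and tph2, and control replicate 3 was the highest control for slc6a3 at 1.46 FPKM.

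Serotonin synthesis starts with tryptophan hydroxylase, of which 3 genes were measured. In larval zebrafish tph2 is known from the raphe nuclei of the hindbrain and tph1a from the hypothalamus, and tph1b is the close relative of tph1a. The gene tph1a (ENSDARG00000029432) lies on chromosome 25 at 8139220 to 8160030, minus strand, in GRCz11. It was at 1.30, 1.38 and 1.17 FPKM in the controls. Its levels were 1.24, 1.10 and 0.801 FPKM at 6 µg/L, 0.616, 0.844 and 1.20 FPKM at 30 µg/L, and 0.471, 0.673 and 0.517 FPKM at 50 µg/L. All libraries at 50 µg/L were below all controls, while the libraries at 6 and 30 µg/L overlapped the controls. Against the controls tph1a fell at 50 µg/L, with a log2 change of -1.21 ± 0.28 (adjusted p = 0.0051) and a 95% interval of -1.82 to -0.60, which put it at 0.432 of the control level. It also fell against 6 µg/L, at -0.92 ± 0.29 (adjusted p = 0.034), a call that was lost without replicate 1 or 2 at 6 µg/L (adjusted p = 0.12 and 0.092) and without replicate 1 or 3 at 50 µg/L (adjusted p = 0.11 for each). Against 30 µg/L the change was -0.68 ± 0.29 and missed the threshold (adjusted p = 0.18), and at 30 µg/L against control it was -0.53 ± 0.27 (adjusted p = 0.15).

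The gene tph1b (ENSDARG00000036082; chromosome 7, 33106332 to 33114884, minus strand, GRCz11) was at 1.49, 1.35 and 1.25 FPKM in the controls and at 1.56, 1.58 and 1.71 FPKM at 6 µg/L. It was at 0.970, 1.24 and 0.822 FPKM at 30 µg/L and at 0.908, 0.693 and 0.870 FPKM at 50 µg/L. The libraries at 6 µg/L were all above the controls and those at 30 and 50 µg/L all below them, so that 6 µg/L held the highest values of the series. The change at 50 µg/L against control was -0.72 ± 0.21 (adjusted p = 0.015), with a 95% interval of -1.17 to -0.27. It did not pass without control replicate 1 (-0.63, adjusted p = 0.052), without replicate 2 at 50 µg/L (-0.58, adjusted p = 0.074) or against control replicate 3 alone (-0.59, adjusted p = 0.11), nor in a fit of these 2 groups alone (adjusted p = 0.059). Against 6 µg/L tph1b changed by -0.97 ± 0.20 at 50 µg/L (adjusted p = 0.0045) and by -0.68 ± 0.20 at 30 µg/L (adjusted p = 0.035). At 30 against 6 µg/L the call was lost without any 1 of the replicates at 6 µg/L (adjusted p = 0.081, 0.081 and 0.11), without replicate 1 or 3 at 30 µg/L (adjusted p = 0.11 and 0.15) and without replicate 3 at 50 µg/L (adjusted p = 0.051), as well as with no minimum level (adjusted p = 0.056). The higher level at 6 µg/L than in controls, 0.25 ± 0.19, missed the threshold (adjusted p = 0.41). At 30 µg/L against control the change was -0.43 ± 0.20 and missed it too (adjusted p = 0.12), with a 95% interval of -0.87 to 0.0008.

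The raphe form tph2 (ENSDARG00000057239; chromosome 18, 16989764 to 17001056, minus strand, GRCz11) was at 2.46, 2.12 and 1.82 FPKM in the controls and at 2.1, 1.91 and 2.36 FPKM at 6 µg/L. At 30 µg/L it was at 1.41, 1.91 and 1.69 FPKM, and at 50 µg/L at 1.50, 1.64 and 1.65 FPKM. The libraries at 50 µg/L lay below all controls and below all libraries at 6 µg/L. The difference from control at 50 µg/L was -0.41 ± 0.18, with a 95% interval of -0.80 to -0.02, and missed the threshold after adjustment (adjusted p = 0.087). Without control replicate 3, the lowest control for this gene, tph2 passed at 50 µg/L (-0.52 ± 0.19, adjusted p = 0.022) and at 30 µg/L (-0.47 ± 0.19, adjusted p = 0.035). Against control replicate 3 alone the difference at 50 µg/L was -0.18 ± 0.23 (adjusted p = 0.57).

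All 3 tryptophan hydroxylase genes were lower at 50 µg/L than in any control, and such separation of the 3 libraries from the 3 controls was found for 23.0% of all tested genes in that direction. The summed level of the 3 genes was 4.79 ± 0.513 FPKM in controls, 4.79 ± 0.167 FPKM at 6 µg/L, 3.57 ± 0.518 FPKM at 30 µg/L and 2.98 ± 0.0829 FPKM at 50 µg/L (SD, n = 3). The sums at 6 µg/L lay within the range of the controls, and those at 30 and 50 µg/L below every control. Among single members, tph1b was the only one lying entirely below the controls at 30 µg/L, where 20.1% of tested genes did so, and the only one entirely above them at 6 µg/L, where 12.1% did so.

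Along the dose series tph1a changed by -0.21 ± 0.05 per 10 µg/L (adjusted p = 0.0080) and tph1b by -0.18 ± 0.04 per 10 µg/L (adjusted p = 0.0061). These were 2 of the 9 members, while 16.6% of all tested genes fell with dose. The slope of tph2 was -0.09 ± 0.03 per 10 µg/L and missed the threshold with all libraries (adjusted p = 0.051). It was -0.11 without control replicate 3 and passed (adjusted p = 0.027), as it did with scaling by library totals (adjusted p = 0.025) and with limma on log2(FPKM + 1) or log2(FPKM + 0.1) (adjusted p = 0.025 and 0.024). No member rose with dose. In a fit of the 3 exposed groups alone, chosen after the data had been seen, the slope of tph1b was -0.22 (adjusted p = 0.0044) and that of tph1a -0.20 (adjusted p = 0.051).

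**Figure D2:**
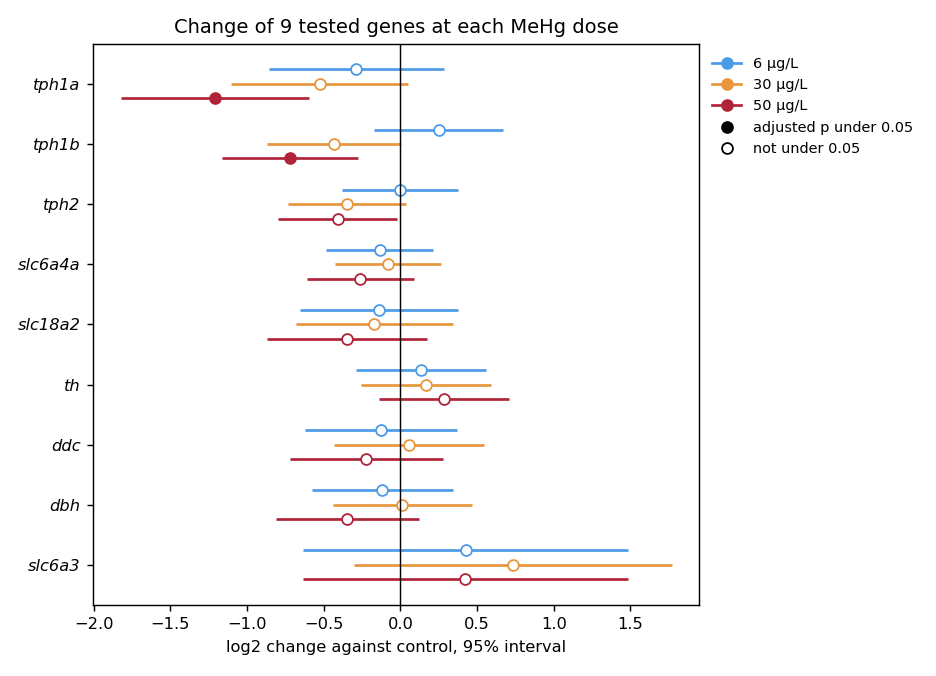
Log2 change of the 9 tested genes at 6, 30 and 50 µg/L MeHg against the control, with lines for the 95% interval and filled points where the adjusted p was under 0.05. Only tph1a and tph1b at 50 µg/L are filled, at -1.21 and -0.72, and the interval of slc6a3 is the widest.

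The serotonin transporter gene slc6a4a encodes the carrier that returns serotonin to the neuron that released it. It lies on chromosome 15 at 28609025 to 28618502, minus strand, in GRCz11 (ENSDARG00000061165). The controls were at 7.17, 7.39 and 11.1 FPKM, and the exposed libraries at 7.49, 8.24 and 7.70 FPKM at 6 µg/L, 7.76, 7.97 and 8.63 FPKM at 30 µg/L, and 7.45, 7.72 and 6.31 FPKM at 50 µg/L. Control replicate 3 was above all other libraries, and the other controls lay among the exposed ones. The differences from control were -0.14 ± 0.16 at 6 µg/L, -0.08 ± 0.16 at 30 µg/L and -0.26 ± 0.16 at 50 µg/L, where the 95% interval was -0.61 to 0.09 (adjusted p = 0.22). The gene was past the threshold against control only where control replicate 3 was the sole control, with differences of -0.50, -0.44 and -0.63 at 6, 30 and 50 µg/L (adjusted p = 0.010, 0.013 and 0.00078). Without that library the difference at 50 µg/L was -0.03 ± 0.11 (adjusted p = 0.80).

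The vesicular monoamine transporter gene slc18a2, whose product loads dopamine, noradrenaline and serotonin alike, showed no change that passed the test at any dose. It (ENSDARG00000015110; chromosome 17, 23782324 to 23811332, plus strand, GRCz11) was at 1.11, 1.41 and 1.59 FPKM in the controls and at 0.947, 1.52 and 1.28 FPKM at 6 µg/L. It was at 1.46, 1.18 and 1.04 FPKM at 30 µg/L and at 1.15, 1.18 and 0.928 FPKM at 50 µg/L. The groups overlapped throughout. At 50 µg/L the difference from control was -0.35 ± 0.24, with a 95% interval of -0.87 to 0.17 (adjusted p = 0.27).

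Tyrosine hydroxylase catalyses the first step towards dopamine and noradrenaline. The main gene, th (ENSDARG00000030621), lies on chromosome 25 at 24055341 to 24074500, minus strand, in GRCz11. It was at 2.71, 2.03 and 3.57 FPKM in the controls, 3.10, 2.99 and 3.07 FPKM at 6 µg/L, 3.38, 3.13 and 2.87 FPKM at 30 µg/L, and 3.39, 3.70 and 3.09 FPKM at 50 µg/L. The 9 exposed libraries lay between 2.87 and 3.70 FPKM, above control replicates 1 and 2, while control replicate 3 lay inside that range. At 50 µg/L th differed from control by 0.29 ± 0.20, with a 95% interval of -0.14 to 0.71 (adjusted p = 0.27). Without control replicate 3 it rose by 0.52 ± 0.19 (adjusted p = 0.021), and set against that library alone the difference was -0.07 ± 0.19 (adjusted p = 0.80).

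The second tyrosine hydroxylase gene, th2, known from the zebrafish hypothalamus, was close to the lower limit of detection. It (ENSDARG00000038384; chromosome 4, 17380578 to 17391091, minus strand, GRCz11) was at 0.248, 0.124 and 0.381 FPKM in the controls, 0.374, 0.0831 and 0.298 FPKM at 6 µg/L, 0.487, 0.317 and 0.140 FPKM at 30 µg/L, and 0.134, 0.319 and 0.531 FPKM at 50 µg/L. The groups overlapped throughout. The summed counts of the 3 libraries were 24 in controls, 22 at 6 µg/L, 31 at 30 µg/L and 30 at 50 µg/L. In a fit without the minimum level, the difference at 50 µg/L against control was 0.41 ± 0.64 (adjusted p = 0.68). Its 95% interval was -0.96 to 1.78, or 0.515 to 3.44 times the control level, which takes in both a fall and a rise.

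The decarboxylase gene ddc (ENSDARG00000016494; chromosome 16, 8298542 to 8342749, minus strand, GRCz11), which serves both branches, was at 0.747, 0.700 and 1.14 FPKM in the controls and at 0.614, 0.844 and 0.925 FPKM at 6 µg/L. It was at 0.873, 0.940 and 0.896 FPKM at 30 µg/L and at 0.883, 0.626 and 0.717 FPKM at 50 µg/L. Control replicate 3 was the highest of the 12 libraries, and the groups overlapped. The difference at 50 µg/L was -0.22 ± 0.23, with a 95% interval of -0.72 to 0.28 (adjusted p = 0.47). It was 0.03 ± 0.22 without control replicate 3 and -0.60 ± 0.25 against that library alone.

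Dopamine beta-hydroxylase, encoded by dbh, turns dopamine into noradrenaline and marks the locus coeruleus and the sympathetic and chromaffin cells. The gene (ENSDARG00000069446; chromosome 10, 10564261 to 10607118, minus strand, GRCz11) was at 1.28, 1.00 and 1.33 FPKM in the controls, 1.24, 0.913 and 1.18 FPKM at 6 µg/L, 1.09, 1.11 and 1.43 FPKM at 30 µg/L, and 0.890, 1.09 and 0.852 FPKM at 50 µg/L. The libraries at 50 µg/L sat at the low end, with replicate 2 inside the control range. The difference from control was -0.35 ± 0.21, with a 95% interval of -0.81 to 0.12 (adjusted p = 0.22).

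The dopamine transporter gene slc6a3, specific to dopamine neurons, was the most uneven of the 10 among the controls. The gene (ENSDARG00000004219) lies on chromosome 16 at 248239 to 263658, minus strand, in GRCz11. Its 3 control libraries held 5, 18 and 62 counts, equal to 0.179, 0.483 and 1.46 FPKM, a coefficient of variation of 94.6%. The exposed libraries were far closer to each other. They were at 0.971, 1.20 and 0.806 FPKM at 6 µg/L, 0.867, 1.40 and 1.45 FPKM at 30 µg/L, and 0.928, 0.980 and 1.08 FPKM at 50 µg/L. All 9 exposed libraries were above control replicates 1 and 2 and all 9 were below control replicate 3.

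With all controls, slc6a3 differed from control by 0.42 ± 0.49 at 6 µg/L (adjusted p = 0.58), 0.73 ± 0.48 at 30 µg/L (adjusted p = 0.26) and 0.42 ± 0.49 at 50 µg/L (adjusted p = 0.52). Without control replicate 3 it rose at each dose, by 1.51 ± 0.39, 1.80 ± 0.38 and 1.50 ± 0.39 (adjusted p = 0.0028, 0.00039 and 0.0024). Against control replicate 3 alone the differences were -0.53, -0.22 and -0.54, and none passed the test. The exposed groups did not differ among themselves by the test, with changes of 0.31 ± 0.47 at 30 against 6 µg/L and -0.31 ± 0.47 at 50 against 30 µg/L.

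The choice of control libraries touched the members unequally. Control replicate 3 stood at 4.41 times the mean of control replicates 1 and 2 for slc6a3, 2.05 times for th2, 1.57 for ddc, 1.53 for slc6a4a, 1.50 for th, 1.26 for slc18a2 and 1.17 for dbh. For the tryptophan hydroxylase genes it was the lower one, at 0.877 for tph1b, 0.872 for tph1a and 0.794 for tph2. Leaving out that library also raised the share of all tested genes called in either direction to 56.5% at 6 µg/L, 61.8% at 30 µg/L and 62.8% at 50 µg/L. With it as the only control, that share was 24.8% at 6 µg/L, 35.2% at 30 µg/L and 44.8% at 50 µg/L. Of the 9 tested members, 5 passed at 50 µg/L without it (th, slc6a3, tph1a, tph1b and tph2), and tph1a and slc6a4a were past the threshold with it as the only library of that arm.

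**Figure D3:**
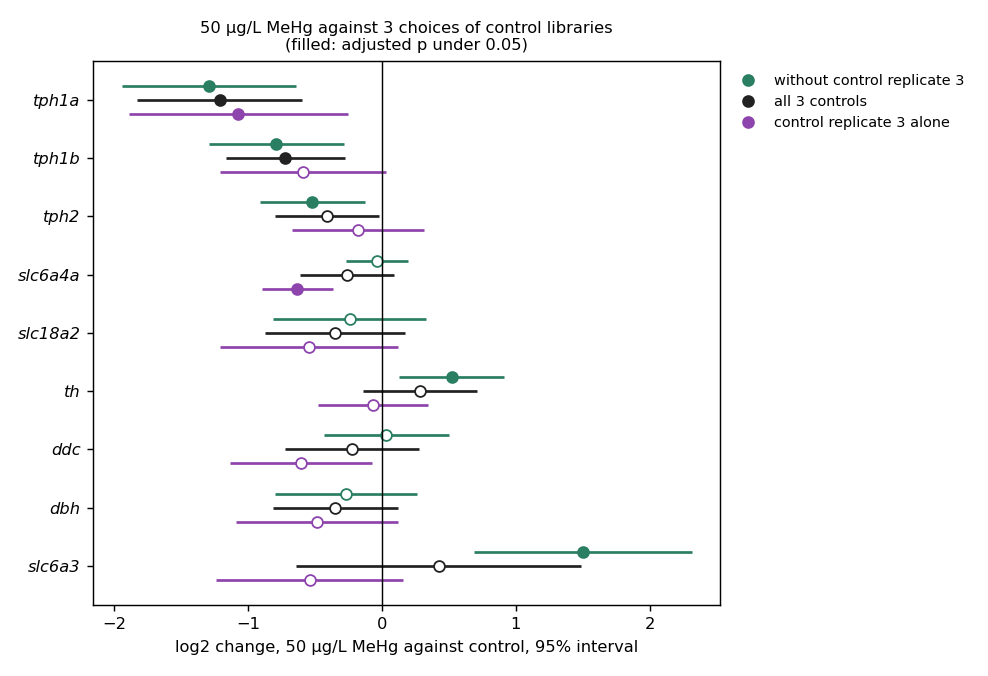
Log2 change at 50 µg/L MeHg against control for the 9 tested genes, with 95% intervals, under 3 choices of control libraries; filled points had an adjusted p under 0.05. For slc6a3 the value is 1.50 without control replicate 3, 0.42 with all controls and -0.54 with that library alone, while tph1a stays between -1.29 and -1.07.

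Between the exposed groups, the members called were tph1b at 30 against 6 µg/L and both tph1a and tph1b at 50 against 6 µg/L. These were 1 and 2 of the 9 tested members, or 11.1% and 22.2%, against 8.44% and 12.9% of all tested genes that fell in those comparisons. Levels at 50 µg/L lay below all libraries at 6 µg/L for tph1a, tph1b and tph2, as for 28.0% of tested genes, and tph1b at 30 µg/L lay below all libraries at 6 µg/L, as for 24.1%. Between 50 and 30 µg/L 0 of 9 members passed by edgeR, DESeq2 or limma, and 1, tph1a, had an unadjusted p under 0.05, against 8.62% of all tested genes called in either direction. There slc6a4a was the member whose libraries at 50 µg/L all lay below those at 30 µg/L, as for 22.1% of tested genes, with a difference of -0.18 ± 0.16 (adjusted p = 0.59).

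Ratios of 2 genes within a library do not depend on how libraries are scaled. The level of tph1a as a share of slc6a4a was 6.33%, 8.72% and 8.19% in the libraries at 50 µg/L, against 18.1%, 18.7% and 10.5% in the controls, so that the groups did not overlap. At 6 and 30 µg/L it averaged 13.4% ± 3.06 and 10.8% ± 3.02 (SD, n = 3). For tph1b over slc6a4a the groups overlapped, at 12.2%, 8.96% and 13.8% at 50 µg/L, against 20.8%, 18.3% and 11.2% in the controls. They also overlapped for tph2 over slc6a4a, at 22.5% ± 3.22 at 50 µg/L and 26.5% ± 9.21 in controls. In the catecholamine branch dbh over th was 26.2%, 29.5% and 27.5% in the libraries at 50 µg/L, against 47.0%, 49.2% and 37.2% in the controls, again without overlap, though neither gene passed the test by itself. These ratios were not tested, and the share of all gene pairs that separate in this way was not determined. Of single tested genes, 44.2% had groups that did not overlap at 50 µg/L against control, in either direction.

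**Figure D4:**
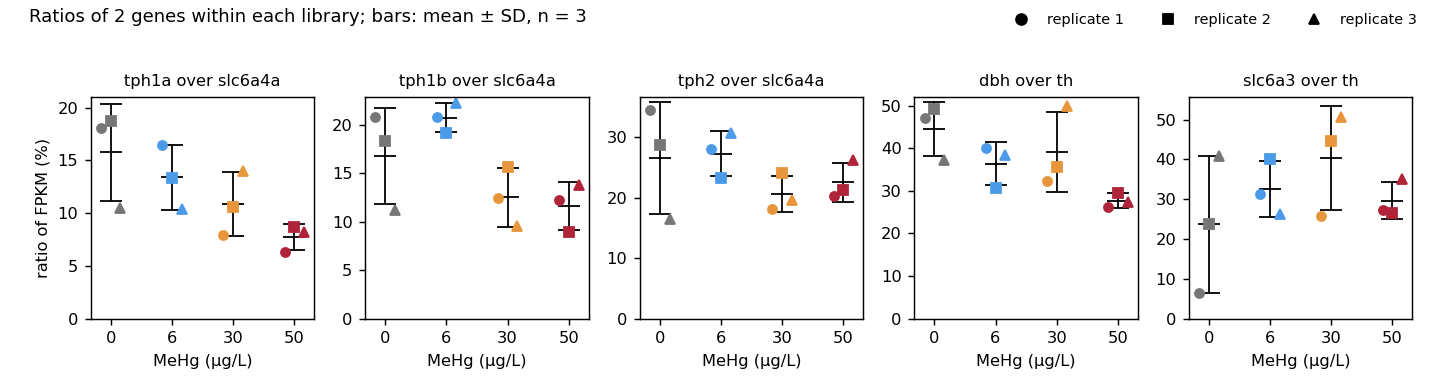
Ratios of FPKM of 2 genes within each library, in percent on linear axes from 0, against the MeHg concentration in µg/L; symbols mark replicates and bars the mean ± SD of 3 libraries. At 50 µg/L dbh over th averaged 27.7% and tph1a over slc6a4a 7.75%, with all 3 libraries below the lowest control in each.

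The genes whose levels over the 12 libraries ran most like those of the members were looked up by Pearson correlation of log2(CPM + 1) among 19760 tested genes with a symbol. For tph1b they were dre-mir-124-2, at r = 0.963, wdr19, at 0.962, and si:dkey-28a3.2, at 0.959. For tph1a they were BX248497.1, bgnb and prg4b, at 0.933, 0.918 and 0.916. The values for tph2 were 0.938 for nmt2 and 0.934 for b9d1, and those for th were 0.906 for zgc:158689 and 0.899 for both spag1b and sema3ab. These were the highest values in a search of 19760 genes over 12 libraries. Because the libraries fall into dose groups and share their controls, the correlations mix differences between groups with differences within them. With all libraries th passed in no comparison, and its 3 matches did not pass at 50 µg/L against control (adjusted p = 0.22, 0.14 and 0.17).

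Tetrahydrobiopterin, the cofactor that both hydroxylases share, is made by GTP cyclohydrolase and restored after use by dihydropteridine reductase, and the same pterin pathway feeds yellow pigment in zebrafish skin. In this and the lists that follow, counts at 50 µg/L stand against 21.9% of all tested genes that fell and 17.6% that rose with all controls, and against 62.8% called in either direction without control replicate 3. Of 9 tested genes of this cofactor, 3 rose and 1 fell at 50 µg/L, with a median change of -0.02. The cyclohydrolase gene gch1 was at 7.16 ± 0.729 FPKM at 50 µg/L, against 3.23 ± 0.294 FPKM in controls (SD, n = 3 each), a rise of 1.15 ± 0.11 (adjusted p = 9.1e-06). The reductase gene qdpra was at 40.3 ± 1.43 FPKM at 50 µg/L, against 9.17 ± 1.70 FPKM in controls, a rise of 2.14 ± 0.14 (adjusted p = 3.8e-07). Both were higher at 30 µg/L too, by 0.98 ± 0.11 and 1.81 ± 0.13 (adjusted p = 5.7e-05 and 2.9e-06), while neither passed at 6 µg/L. The other cyclohydrolase gene, gch2, was far more abundant, at 104.2 ± 5.14 FPKM at 50 µg/L and 105.6 ± 20.3 FPKM in controls. It passed at no dose against control, with a difference of -0.02 ± 0.15 at 50 µg/L (adjusted p = 0.94). The dehydratase gene pcbd1 rose by 0.84 ± 0.26 at 50 µg/L (adjusted p = 0.021), a call lost without replicate 1 or 3 at that dose (adjusted p = 0.064 and 0.058). The gene gchfr, whose product restrains GTP cyclohydrolase, changed by -1.14 ± 0.28 (adjusted p = 0.0068), but the difference was -0.28 against control replicate 3 alone (adjusted p = 0.40). At 30 µg/L 4 cofactor genes rose and 1 fell, and without control replicate 3 the counts at 50 µg/L were 3 and 2. Among the rises at 30 µg/L, spra rose at that dose only, by 1.66 ± 0.12 (adjusted p = 2.5e-06), and differed by -0.04 ± 0.12 at 50 µg/L (adjusted p = 0.82).

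Against all 3 controls, genes for the breakdown of monoamines that changed were lower. Of 8 tested genes for breakdown and further carriers, 3 fell and 0 rose at 50 µg/L, with a median of -0.31, and 4 fell and 0 rose without control replicate 3. Between exposed groups the direction varied. At 30 against 6 µg/L there were 2 rises and 0 falls, where 7.13% of all tested genes rose and 8.44% fell. At 50 against 30 µg/L there were 0 rises and 1 fall, where 4.18% rose and 4.44% fell. At 50 against 6 µg/L there was 1 rise and 0 falls, where 11.1% rose and 12.9% fell. The catechol O-methyltransferase genes comta and comtb changed by -0.81 ± 0.15 and -0.72 ± 0.12 (adjusted p = 0.0011 and 0.00066), and aldh2.2, an aldehyde dehydrogenase gene, by -0.57 ± 0.11 (adjusted p = 0.0022). The organic cation carrier gene slc22a2 differed by -0.35 (adjusted p = 0.076).

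At 50 µg/L against all 3 controls, receptor genes were called in the lower direction only, where 21.9% of all tested genes fell and 17.6% rose. Of 8 tested dopamine receptor genes 3 fell and 0 rose, with a median of -0.80, and of 8 tested serotonin receptor genes, out of 20 found, 4 fell and 0 rose, with a median of -0.69. Of 11 tested adrenergic receptor genes 4 fell and 0 rose, with a median of -0.51. Without control replicate 3 the same 3 lists gave 3, 4 and 4 falls and 0, 1 and 1 rises, while 62.8% of all tested genes were called in either direction. Their medians were then -0.71, -0.49 and -0.39. The dopamine receptor gene drd4a was at 0.424 ± 0.0910 FPKM at 50 µg/L, against 1.96 ± 0.768 FPKM in controls, a change of -2.22 ± 0.30 (adjusted p = 0.00012). The calls of drd1b, at -1.38 ± 0.38 (adjusted p = 0.013), and drd2b, at -0.98 ± 0.29 (adjusted p = 0.017), were lost without replicate 2 at 50 µg/L (adjusted p = 0.062 and 0.069), that of drd2b also without replicate 3 at that dose or control replicate 1 (adjusted p = 0.078 and 0.050), and drd4b differed by -1.07 (adjusted p = 0.063).

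The serotonin receptor gene htr1aa, whose product acts as the autoreceptor of raphe neurons in mammals, was at 1.16 ± 0.365 FPKM at 50 µg/L, against 3.23 ± 0.530 FPKM in controls, a change of -1.47 ± 0.24 (adjusted p = 0.00047). Its relative htr1d changed by -1.34 ± 0.26 (adjusted p = 0.0018). The calls of htr1b, at -1.21 ± 0.40 (adjusted p = 0.031), and htr3a, at -0.51 ± 0.18 (adjusted p = 0.036), were each lost on leaving out any 1 of the libraries at 50 µg/L, with adjusted p of 0.071, 0.098 and 0.078 for htr1b and 0.078, 0.096 and 0.10 for htr3a. That of htr1b was lost without control replicate 3 as well (-0.54, adjusted p = 0.17), and that of htr3a without control replicate 2 (adjusted p = 0.14), without replicate 1 or 3 at 6 µg/L (adjusted p = 0.054 and 0.052) and without replicate 2 or 3 at 30 µg/L (adjusted p = 0.057 and 0.051). Of the adrenergic receptor genes, adra2c changed by -1.23 ± 0.24 (adjusted p = 0.0019), adrb3a by -0.91 ± 0.15 (adjusted p = 0.00048) and adrb2a by -0.63 ± 0.16 (adjusted p = 0.0073). In a fit of the controls and the libraries at 50 µg/L only, adrb2a lost its call (-0.64, adjusted p = 0.060). Against control replicate 3 alone the difference of adrb2a was -0.47. The call of adra2a, at -0.75 ± 0.26 (adjusted p = 0.034), was lost without control replicate 1 or 2 (adjusted p = 0.13 and 0.12) and without any 1 of the libraries at 50 µg/L (adjusted p = 0.065, 0.095 and 0.094), and the difference was -0.15 against control replicate 3 alone.

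Among transcription factors of monoamine neurons, 5 of 25 tested genes rose and 1 fell at 50 µg/L, with a median of 0.28. The counts were 15 and 3 without control replicate 3. The gene that fell was fev, which in the mouse drives the serotonin neuron programme including tryptophan hydroxylase and the serotonin transporter. It was at 2.88 ± 0.411 FPKM at 50 µg/L, against 5.27 ± 2.21 FPKM in controls, a change of -0.85 ± 0.25 (adjusted p = 0.019). This was lost without control replicate 1 (-0.49, adjusted p = 0.095) and without replicate 2 or 3 at 50 µg/L (adjusted p = 0.082 and 0.055), and was -0.11 with control replicate 3 alone (adjusted p = 0.68). The zinc finger genes insm1a and insm1b rose by 1.60 ± 0.15 (adjusted p = 7.2e-06) and 1.49 ± 0.28 (adjusted p = 0.0014), and the ETS factor gene etv5b rose by 1.01 ± 0.15 (adjusted p = 0.00027). The insm1 genes are also active in endocrine cells and in newborn neurons of many kinds.

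**Figure D5:**
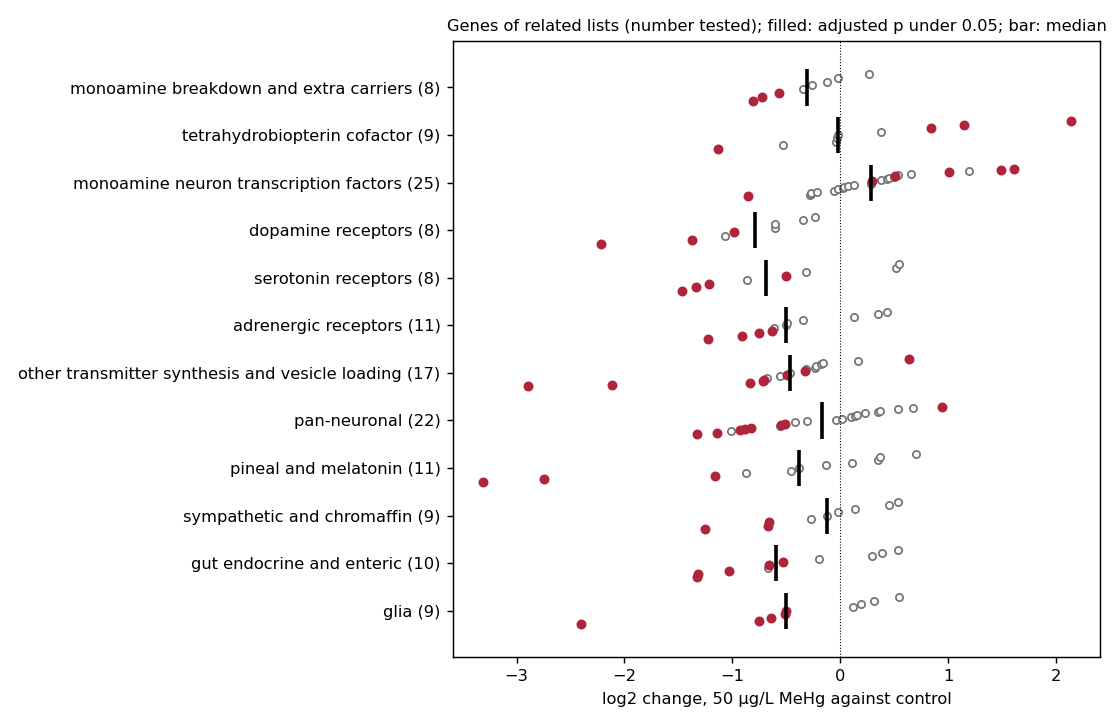
Log2 change at 50 µg/L MeHg against control of each tested gene in 12 related lists, with the number tested in brackets, filled points for an adjusted p under 0.05 and a bar at the list's median. The receptor lists lie left of 0 by their medians, -0.80 for dopamine, -0.69 for serotonin and -0.51 for adrenergic receptors, while qdpra and gch1 stand at 2.14 and 1.15 in the cofactor list.

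Markers of the cell types that could hold monoamine genes moved as well, and their part in the changes of the members was not tested. Of 22 pan-neuronal genes 1 rose and 7 fell at 50 µg/L, with a median of -0.17. Without control replicate 3 there were 11 rises and 8 falls with a median of 0.28, where 6101 of all 19821 tested genes rose and 6354 fell. Their summed level ran from 1052 to 1058 FPKM at 50 µg/L, against 1316 to 1838 FPKM in controls, and no gene of the list was at 0 in all libraries. Much of that sum was sncb and stmn1b, at means of 373.9 and 307.0 FPKM in controls and 202.5 and 138.8 FPKM at 50 µg/L. The gene that rose was nefma, by 0.94 ± 0.28 (adjusted p = 0.018). Those that fell included the synaptic genes snap25a and snap25b, by -0.93 ± 0.09 (adjusted p = 1.1e-05) and -1.33 ± 0.20 (adjusted p = 0.00026), the tubulin-binding stmn1b, by -1.15 ± 0.14 (adjusted p = 7.1e-05), and the synuclein gene sncb, by -0.88 ± 0.11 (adjusted p = 8.7e-05).

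Genes for other transmitters showed 1 rise and 7 falls among 17 tested, with a median of -0.47. Without control replicate 3 there were 5 rises and 6 falls, with a median of -0.19. The vesicular glutamate transporter genes slc17a7a and slc17a8 changed by -2.89 ± 0.30 (adjusted p = 1.7e-05) and -0.72 ± 0.21 (adjusted p = 0.016), the second of these losing its call without replicate 1 or 3 at 50 µg/L (adjusted p = 0.057 and 0.054). The GABA synthesis gene gad1b changed by -0.84 ± 0.18 (adjusted p = 0.0035) and the vesicular acetylcholine transporter gene slc18a3a by -0.49 ± 0.11 (adjusted p = 0.0034). Their summed level was 126.8 to 133.3 FPKM at 50 µg/L, against 119.2 to 252.0 FPKM in controls, so that the groups overlapped.

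The pineal gland makes melatonin from serotonin, and 3 of 11 pineal and melatonin genes fell and 0 rose at 50 µg/L, with a median of -0.39. Their sums were 44.7 to 46.6 FPKM at 50 µg/L, against 126.1 to 160.4 FPKM in controls. These sums rested on the transducin genes gnb3a and gngt2a, which photoreceptors of the eye also use and which changed by -2.75 ± 0.11 (adjusted p = 1.1e-08) and -3.31 ± 0.21 (adjusted p = 3.8e-07). The melatonin synthesis gene aanat1, in fish known mainly from the retina, changed by -1.16 ± 0.38 (adjusted p = 0.030), a call lost without control replicate 3 (adjusted p = 0.070) and without any 1 of the libraries at 50 µg/L (adjusted p = 0.10, 0.055 and 0.077), and the pineal opsin gene exorh differed by 0.70 ± 0.29 (adjusted p = 0.071). The pineal form, aanat2, named after its values were seen, was at 2.38 ± 0.196 FPKM in controls, 4.11 ± 0.424 FPKM at 6 µg/L, 1.38 ± 0.387 FPKM at 30 µg/L and 2.58 ± 0.272 FPKM at 50 µg/L (SD, n = 3). Its difference from control was 0.11 ± 0.20 at 50 µg/L (adjusted p = 0.69), while it rose by 0.78 ± 0.20 at 6 µg/L (adjusted p = 0.022) and changed by -0.78 ± 0.21 at 30 µg/L (adjusted p = 0.016). The call at 6 µg/L was lost without control replicate 1 or 2 (adjusted p = 0.064 and 0.051) and without replicate 2 or 3 at that dose (adjusted p = 0.054 and 0.085), and that at 30 µg/L without control replicate 2 or replicate 2 at that dose (adjusted p = 0.051 and 0.059). The list gave 2 rises and 3 falls without control replicate 3, with a median of -0.11.

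For sympathetic and chromaffin cells, where dbh is also at work, 3 of 9 genes fell and 0 rose, with a median of -0.12, and the sums were 75.0 to 80.3 FPKM at 50 µg/L, against 79.7 to 94.7 FPKM in controls. The genes that fell were chga and chgb, which encode granule proteins, by -0.66 ± 0.14 and -0.67 ± 0.14 (adjusted p = 0.0025 and 0.0023), and npy, by -1.26 ± 0.27 (adjusted p = 0.0032). The transcription factor gene phox2bb differed by 0.54 ± 0.22 (adjusted p = 0.071) with all controls and rose by 0.86 without control replicate 3 (adjusted p = 5.9e-05), where the list gave 3 rises and 4 falls.

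Gut endocrine and enteric cells are a further site of serotonin synthesis. Of 10 such genes 5 fell and 0 rose at 50 µg/L, with a median of -0.60, and 5 fell and 2 rose without control replicate 3. Their sums were 172.6 to 174.9 FPKM in controls, 161.8 to 169.9 FPKM at 6 µg/L, 109.5 to 113.5 FPKM at 30 µg/L and 98.0 to 101.6 FPKM at 50 µg/L. Much of that sum was neurod1, a gene also active in retina and brain, at 37.8 ± 1.73 FPKM at 50 µg/L, against 94.3 ± 6.04 FPKM in controls, a change of -1.32 ± 0.09 (adjusted p = 7.1e-07). The enkephalin gene penka changed by -1.33 ± 0.20 (adjusted p = 0.00024), adcyap1b by -0.53 ± 0.10 (adjusted p = 0.0018) and chga as given above. Of 9 genes of glia 5 fell and 0 rose, with a median of -0.50, set against 21.9% and 17.6% of all tested genes, and 5 fell and 2 rose without control replicate 3, where 62.8% of all tested genes were called. The myelin gene mbpa changed by -2.40 ± 0.23 (adjusted p = 8.6e-06), gfap by -0.75 ± 0.12 (adjusted p = 0.00036) and plp1b by -0.64 ± 0.17 (adjusted p = 0.011), the last of these not without replicate 2 at 50 µg/L (adjusted p = 0.053). The call of fabp7a, at -0.50 ± 0.15 (adjusted p = 0.019), was lost without control replicate 1 or 2 (adjusted p = 0.079 and 0.088) and without replicate 2 or 3 at 50 µg/L (adjusted p = 0.068 for each), and the difference was -0.05 against control replicate 3 alone. The sums of the glial list were 682.7 to 719.0 FPKM at 50 µg/L, against 802.0 to 1058 FPKM in controls.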

How the data were processed

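The authors deposited, for 32057 genes and 12 libraries, raw read counts and FPKM. Recomputing FPKM from the counts, the exonic size and each library's total gave the deposited FPKM to within 0.0051 for 100% of values. The build was GRCz11, per the submitters' processing notes, which also list HISAT2 2.0.1, HTSeq 0.6.1, DESeq2, cutadapt 1.9.1 and FastQC 0.10.1. Neither the annotation release nor whether counting used strand is stated there, so reads of overlapping and antisense genes cannot be assigned with certainty. Per the labels' protocols, TRIzol RNA was selected on oligo(dT) beads, copied from random primers and sequenced as read pairs.

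From the counts, edgeR 4.0.16 in R 4.3.3 was run with TMM scaling on all 12 libraries in 4 groups of 3, so that they share the estimate of spread, with two-sided quasi-likelihood tests and Benjamini-Hochberg adjustment over the 19821 genes with a mean deposited FPKM of at least 0.5. The trend used the concentration as a number. The SE is the size of the log2 change divided by the square root of F, which is approximate. Alternatives were median-of-ratios scaling, library totals, DESeq2 1.42.0, limma 3.58.1 on log2(FPKM + 1) and on log2(FPKM + 0.1), no filter (28397 genes), a mean FPKM of at least 2 (14639 genes), adjusted p under 0.01, a block for the replicate number, a correction for gene length, dose as a rank, the compared groups only, control replicate 3 as the only control and each library left out.

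All 10 members are reported. Of 12 lists of related genes, up to 4 with the smallest p at 50 µg/L are named, and for the 4 members with the smallest p in the trend, the 3 genes most like each, of which 1 is not reported here. Of 179 symbols on the lists, 163 matched the table, 2 matched through a reference table of symbols and 14 did not. The members and lists were chosen with earlier results of these data known. The edgeR procedure was run on simulated counts that had the same spread for every gene, changes only above a minimum count and no outlying control. That run therefore does not cover genes with few counts or the uneven controls of this series. Counting error alone limits genes with few reads, and reads were not marked by molecule.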

Additional observations from a re-analysis of the deposited data

How the results depend on the processing

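At 50 µg/L against control 2 members were called. The count was 0 with a mean FPKM of at least 2, where neither tph1a nor tph1b was tested, 1 with an adjusted p under 0.01 and 1 with the compared groups only (tph1a each time), and 1 to 5 on leaving out each library, with 1 without control replicate 1 or replicate 2 at 50 µg/L (tph1a) and 5 without control replicate 3. At 6 µg/L the count of 0 became 1 without control replicate 3 (slc6a3) and 1 with it as the only control (slc6a4a), a range of 0 to 1 over the libraries left out. At 30 µg/L it became 2 and 1 under the same choices, a range of 0 to 2. At 30 against 6 µg/L the count of 1 became 0 with no filter, with a mean FPKM of at least 2, with an adjusted p under 0.01 and with the replicate block, and ran from 0 to 1 over the libraries left out. At 50 against 6 µg/L the count of 2 became 0 with a mean FPKM of at least 2 and 1 with an adjusted p under 0.01 (tph1b), was 3 with library totals and in both limma fits (tph2 added), and ran from 1 to 2 over the libraries left out. For the trend the count of 2 became 0 with a mean FPKM of at least 2 and 1 on the 3 exposed groups (tph1b), chosen after seeing the data, and was 3 with library totals, in both limma fits and without control replicate 3 (tph2 added). With a mean FPKM of at least 2, tph1a and tph1b, at means of 0.948 and 1.21 FPKM, were not tested in any comparison. Their absence from those counts is therefore not a lost call. The limit of 0.01 was applied to the adjusted p-values of the main fit. The cause of the other differences was not tested. At 50 against 30 µg/L the count stayed at 0 under each alternative.

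The call of tph1a at 50 µg/L against control held in 23 of 23 alternatives that tested it, with an adjusted p of 0.0014 to 0.033. That of tph1b held in 18 of 23 (0.0078 to 0.11), and at 50 against 6 µg/L in 23 of 23 (0.0010 to 0.026). Of 1472 single values of members recomputed, 20 lost the threshold, 16 passed it newly, 0 called values changed sign and 70 uncalled values did. Among list genes at 6 µg/L gad1b, at -0.04 with all libraries, ran from -0.20 to 0.28 over the libraries left out. It passed at 0.28 without control replicate 3 (adjusted p = 0.0070) and was at -0.52 against that library alone. The gene pcbd1, at -0.12 with all libraries, was at -0.46 without control replicate 3 (adjusted p = 0.0011) and at 0.88 against it alone. In fits of the compared groups only, falls at 50 µg/L numbered 1 for dopamine, 2 for serotonin and 2 for adrenergic receptor genes, 3 for other transmitters and 2 for glia. Falls over all 19821 tested genes numbered 2503 in that fit, against 4331 in the main fit. Scaling by library totals moved the median of all genes at 30 and at 50 against 6 µg/L to -0.13, where with TMM it was -0.01. It gave 1402 higher and 1364 lower genes at 6 µg/L, against 1086 and 1760 with TMM, and tph2 then passed at 50 against 6 µg/L (-0.52, adjusted p = 0.029).

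The labels do not say whether equal replicate numbers pair samples across groups. Deviations from the group means correlated above 0.1 in 3 of 18 same-numbered pairs (range -0.18 to 0.27), which cannot exclude pairing. Differently numbered pairs ranged from -0.31 to 0.24. Beyond the lost call at 30 against 6 µg/L, where tph1b was at -0.69 with the block (adjusted p = 0.055), the block changed no count of members. Among list genes at 50 µg/L, htr3a lost its call with the block (-0.50, adjusted p = 0.054), phox2bb passed (0.59, adjusted p = 0.013), as it did with DESeq2 (adjusted p = 0.046), and 8 transcription factor genes rose in place of 5. With the block 3786 of all 19821 tested genes rose at 50 µg/L against control, and 3492 in the main fit. With 3 to 17 counts per library, depth limits what can be said of th2. For slc6a3 a limit lies in how far the controls differ. Few reads limit slc6a3 as well in control replicate 1, which held 5 counts at a library total of 15784965. Control replicates 2 and 3 held 18 and 62 counts at library totals of 20928762 and 20610418.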
